A study of Mus musculus with 12 samples.

Results

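Dbp, the transcription factor at the output of the circadian clock, fell with corticosterone (CORT) in mice with an intact glucocorticoid receptor (GR). The CORT level was 2.90% of the vehicle level in gastrocnemius, 2.40% in liver and 3.56% in gonadal white adipose tissue (WAT). In mice that lacked GR in myofibers, it stood under CORT at 47.7% of the vehicle level in gastrocnemius and at 42.7% in liver, a tissue in which the receptor gene was not targeted, but at 4.32% in gonadal WAT. The 10 genes described here are Dbp, Tef and Hlf, Nr1d1 and Nr1d2, Per1, Per2 and Per3, Ciart and Bhlhe41, which belong to the output and the negative arm of the clock. They are not all of it, since Cry1, Cry2 and Bhlhe40 are counted among the other clock genes below. With CORT in mice with intact GR, Cry1 was higher past 2-fold in all 3 tissues and Bhlhe40 lower in gonadal WAT. The 10 genes were chosen from earlier results of these same data, with Dbp as the lead gene, so the CORT changes that led to the choice are given as descriptions. The members are 10 of 22249 gene symbols listed in all 3 tissues, and each member was listed in every library.

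The libraries came from male C57BL/6J mice, 8 weeks old at the start, that were given drinking water with 1% ethanol (vehicle) or with 100 µg/mL CORT in 1% ethanol for 4 weeks. All mice carried floxed alleles of Nr3c1, the GR gene, with exon 3, which encodes part of the DNA-binding domain, flanked by loxP sites. GRf/f mice carried no Cre, and GRmKO mice also carried Acta1-Cre, in which the promoter of skeletal actin drives Cre, so that the exon is deleted in myofibers from development onward. This leaves the exon in the other cells of the muscle. The 12 groups, set by tissue, genotype and treatment, had 1 library each, made from pooled RNA of 3 mice, so no group had a replicate and no p-value could be computed. The hour of tissue collection is not given in the sources used here, and each group was sampled once, so a shift in the time of a rhythm and a change in its level cannot be told apart. The GRf/f liver libraries are numbered apart from all other libraries of the series, those of GRmKO liver included. Whether they were prepared or sequenced separately is not stated. In liver, genotype cannot be told apart from any difference that goes with this numbering.

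The libraries held 19394572 to 20940660 expected counts. Levels are counts-per-million of the library total (CPM), log2 changes were taken after 0.5 CPM was added to both sides, and the interval in parentheses after a log2 change is the 95% exact binomial interval of the ratio of counts without that addition, so at low counts it can lie beyond the change itself. Intervals cover counting error only. A gene was called higher or lower when its level differed at least 2-fold, and the share of all tested genes that met this rule is given beside each count of members. The Nr3c1 entry stood at 113 and 90.4 CPM in the vehicle and CORT libraries of GRf/f gastrocnemius and at 46.4 and 35.5 CPM in those of GRmKO gastrocnemius. In liver it was between 45.2 and 60.8 CPM and in gonadal WAT between 111 and 158 CPM in both genotypes. The summed level of 8 skeletal muscle markers was 85239 to 115881 CPM in gastrocnemius and at most 6.34 CPM in liver, that of 10 hepatocyte markers was 101214 to 163144 CPM in liver, and that of 8 adipocyte markers was 25250 to 32328 CPM in gonadal WAT, each highest in its own tissue. The hepatocyte markers also summed to 5616 to 8679 CPM in gonadal WAT, nearly all of it Trf and Cyp2e1, and the other 8 markers, Alb among them, summed there to 57.9 and 68.0 CPM in the vehicle and CORT libraries of GRf/f and to 68.8 and 119 CPM in those of GRmKO.

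In the core clock, CLOCK and BMAL1 (the product of Arntl) bind E-box sequences and drive their target genes. The PER proteins, together with the cryptochromes, and the repressors CIART (also called CHRONO) and BHLHE41 (also called DEC2) hold back CLOCK and BMAL1, which closes the loop. NR1D1 and NR1D2 (REV-ERB alpha and beta) are nuclear receptors that repress Arntl, and DBP, TEF and HLF are the related PAR bZip factors that activate genes through D-box sequences, where NFIL3 represses. The clocks of muscle, liver and fat are set in part by glucocorticoids, and Per1 is a long-known direct target of GR.

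RefSeq promoters (GRCm38.p6, 250 bases before to 50 bases after a start site) were found for 9 of the 10 members, 11 promoters in all. Per2 had no entry. They were searched on both strands for the E-box CACGTG and for the D-boxes TTATGTAA and TTATGCAA, none of which overlapped another. The stretches with a match are shown because the clock acts through these elements, though the members were not chosen by them. The windows of Dbp, Hlf, Nr1d1 and Nr1d2 held no match to the E-box or to either D-box. Each is written 5′ to 3′ on the strand of the gene, the motif in capitals.

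Ciart, chr3:95882247-95882364, minus strand: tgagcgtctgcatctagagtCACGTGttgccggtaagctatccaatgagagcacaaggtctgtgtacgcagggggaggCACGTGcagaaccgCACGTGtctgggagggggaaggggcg
Bhlhe41, chr6:145865548-145865593, minus strand: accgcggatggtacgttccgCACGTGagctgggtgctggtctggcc
Tef, first start site, chr15:81802526-81802571, plus strand: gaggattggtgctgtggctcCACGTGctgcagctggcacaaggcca
Tef, second start site, chr15:81811256-81811301, plus strand: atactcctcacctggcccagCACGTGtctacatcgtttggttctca
Per1, chr11:69098763-69098948, plus strand: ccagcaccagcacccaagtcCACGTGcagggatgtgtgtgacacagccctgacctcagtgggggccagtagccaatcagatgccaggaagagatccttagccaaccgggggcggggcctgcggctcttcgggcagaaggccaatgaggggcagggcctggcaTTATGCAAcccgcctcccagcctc
Per3, chr4:151044796-151044890, minus strand: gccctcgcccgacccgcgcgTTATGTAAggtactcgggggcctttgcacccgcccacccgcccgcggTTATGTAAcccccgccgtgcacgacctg

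The E-box was present in 5 of 11 member promoters and in 7.15% of all 32851 promoters in the table. Ciart held 3 copies, the nearest to the start site at bases -44 to -39. One or the other D-box was present in 2 of 11 member promoters, with 2 copies in Per3 and 1 in Per1, and in 1.66% of all promoters. The Per1 window lies at a RefSeq start site downstream of the 5′ end of the gene in GENCODE M21. Its distance from the start of the transcript that the deposited entry names was not determined. A strict form of the response element of the REV-ERB receptors (0.219% of all promoters) and a strict form of the GR-binding palindrome (0.475%) had no match in these windows.

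Dbp was analysed first. In gastrocnemius it measured 116 CPM in the GRf/f vehicle library, 3.37 CPM in the GRf/f CORT library, 149.5 CPM in the GRmKO vehicle library and 71.3 CPM in the GRmKO CORT library. The 95% Wilson intervals of these 4 levels did not overlap, and the GRf/f CORT library was far below the other 3. The log2 change with CORT was -4.92 (-5.50 to -4.76) in GRf/f and -1.06 (-1.16 to -0.98) in GRmKO. Among 13543 genes tested in this tissue, the fall in GRf/f ranked first, and that in GRmKO ranked 578.

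In liver Dbp measured 124 CPM in the GRf/f vehicle library, 2.97 CPM under CORT, 74.1 CPM in the GRmKO vehicle library and 31.6 CPM under CORT. Liver thus had the same order of CORT libraries as gastrocnemius, with GRf/f lowest. The log2 changes were -5.16 (-5.77 to -5.01) and -1.22 (-1.36 to -1.10), ranks 2 and 211 among the falls of 12485 genes. In gonadal WAT the levels were 246, 8.75, 195 and 8.40 CPM, with log2 changes of -4.73 (-5.04 to -4.60) and -4.45 (-4.76 to -4.31), both ranked first of 14218 genes. Here the 2 CORT libraries could not be separated by counting error, unlike those of the other tissues.

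The GRmKO change minus the GRf/f change of Dbp, on the log2 scale, was 3.85 in gastrocnemius (counting interval 3.67 to 4.41). It was 3.95 (3.76 to 4.54) for liver and 0.28 (-0.03 to 0.59) for gonadal WAT. This difference could not be tested over mice, since each of the 4 libraries behind it is a single pool. Across all 12 libraries, the vehicle libraries of gonadal WAT were highest and the CORT libraries of GRf/f liver and gastrocnemius lowest. The order of neighbours was not resolved beyond counting error for GRf/f vehicle liver and gastrocnemius, for GRmKO vehicle liver and GRmKO CORT gastrocnemius, for the 2 CORT libraries of gonadal WAT, and for the 2 lowest libraries.

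**Figure D1:**
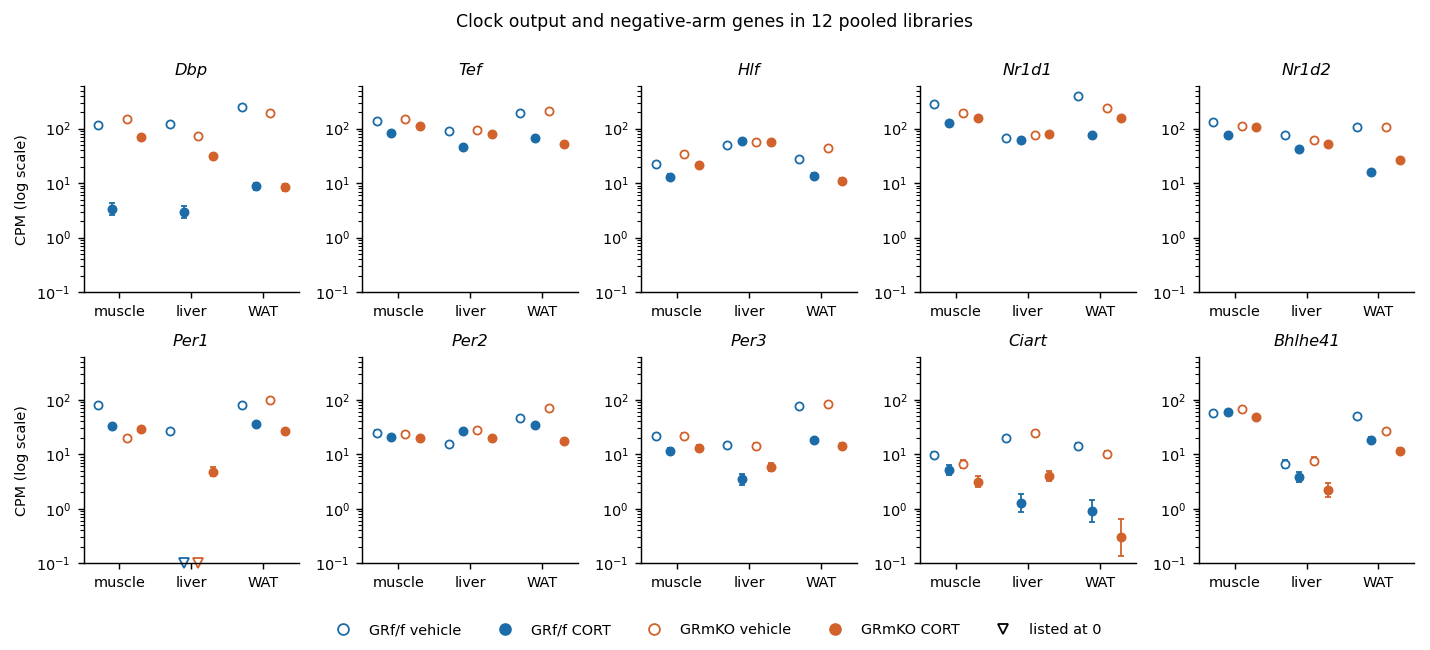
Levels of the 10 members in CPM on a log scale, 1 panel per gene, in gastrocnemius (muscle), liver and gonadal WAT. Open symbols are vehicle libraries and filled symbols CORT libraries, blue for GRf/f and orange for GRmKO, with bars for 95% Wilson counting intervals and triangles for entries listed at 0. The Dbp CORT points of GRf/f stand at 3.37 CPM in muscle and 2.97 CPM in liver, below those of GRmKO at 71.3 and 31.6 CPM, while both CORT points of WAT lie together at 8.75 and 8.40 CPM.

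Tef and Hlf encode the other PAR bZip factors. Tef was below its vehicle level in 6 of 6 CORT comparisons, as Dbp was, by less, and Hlf in 4 of 6. Tef in gastrocnemius measured 141 and 83.0 CPM in the vehicle and CORT libraries of GRf/f and 153 and 110.2 CPM in those of GRmKO. In liver it measured 91.8 and 46.0 CPM in GRf/f and 96.2 and 81.2 CPM in GRmKO. None of these 4 changes reached 2-fold, though that of GRf/f liver, at -0.99 (-1.11 to -0.89) on the log2 scale, lay just inside. In gonadal WAT Tef fell from 193 to 66.5 CPM in GRf/f and from 208 to 53.2 CPM in GRmKO, log2 changes of -1.53 (-1.63 to -1.44) and -1.96 (-2.07 to -1.87).

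Hlf in liver showed the smallest movement of this family, with 50.9 and 60.5 CPM in GRf/f and 56.6 and 57.7 CPM in GRmKO. In gastrocnemius it measured 22.2 and 13.2 CPM in GRf/f and 34.0 and 21.3 CPM in GRmKO, log2 changes of -0.73 and -0.66. Both genotypes therefore showed a similar difference, below 2-fold. In gonadal WAT Hlf fell from 43.5 to 10.9 CPM in GRmKO, a log2 change of -1.95 (-2.22 to -1.78), and measured 27.8 and 13.7 CPM in GRf/f, where -0.996 (-1.24 to -0.81) was just short of 2-fold. Of the PAR bZip genes, Dbp was lower by the 2-fold rule in 6 of 6 CORT comparisons, Tef in 2 and Hlf in 1. The share of all genes tested that were lower ran from 2.82% in GRmKO liver to 8.07% in GRf/f gonadal WAT. Dbp in GRmKO gastrocnemius was short of 2-fold when libraries were scaled by trimmed means (-0.91) or by medians of ratios (-0.92).

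Nr1d1 and Nr1d2 differed between tissues and from each other. Nr1d1 in gastrocnemius fell from 289 to 126 CPM in GRf/f, -1.20 (-1.27 to -1.13), and measured 191 and 154 CPM in GRmKO, -0.31 (-0.38 to -0.24). In liver its 4 levels lay between 61.7 and 81.3 CPM. In gonadal WAT Nr1d1 fell from 398 to 76.5 CPM in GRf/f, -2.37 (-2.46 to -2.30), and measured 235 and 157 CPM in GRmKO, -0.58 (-0.65 to -0.52). The GRf/f vehicle library of gonadal WAT was the highest of all 12 for this gene. The Nr1d1 gene overlaps Thra on the opposite strand, Dbp overlaps Sphk2 on the opposite strand and Per3 overlaps Camta1 on the same strand, and whether counting used the strand is not stated in the sources used here.

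Nr1d2 measured 132 and 76.4 CPM in GRf/f gastrocnemius and 111 and 105 CPM in GRmKO gastrocnemius, and 75.3 and 42.0 CPM in GRf/f liver against 62.1 and 52.9 CPM in GRmKO liver. These changes were smaller than 2-fold. In gonadal WAT it fell in both genotypes, from 107 to 15.9 CPM in GRf/f, -2.71 (-2.92 to -2.58), and from 106 to 27.1 CPM in GRmKO, -1.95 (-2.10 to -1.83). The GRmKO change minus the GRf/f change was above 0 beyond its counting interval in all 3 tissues for both genes, in the order gastrocnemius, liver, gonadal WAT at 0.89, 0.21 and 1.79 for Nr1d1 and at 0.71, 0.61 and 0.76 for Nr1d2.

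The Per genes encode the period repressors and moved separately. Per1 in gastrocnemius measured 80.6 CPM in the GRf/f vehicle library, 33.1 CPM in the GRf/f CORT library, 19.7 CPM in the GRmKO vehicle library and 29.2 CPM in the GRmKO CORT library. The GRf/f vehicle library stood above the other 3, and the changes with CORT had opposite signs, -1.27 (-1.42 to -1.15) in GRf/f and 0.55 (0.38 to 0.76) in GRmKO. In gonadal WAT Per1 fell from 78.4 to 36.6 CPM in GRf/f, -1.09 (-1.23 to -0.97), and from 97.9 to 27.1 CPM in GRmKO, -1.83 (-1.99 to -1.72). In liver it was 26.3 CPM in the GRf/f vehicle library and 4.82 CPM in the GRmKO CORT library and was listed at 0 in the other 2, so it was not tested there and no fold is given.

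A listed 0 can be a failed estimate. Per1 has 5 protein-coding transcripts in GENCODE M21, and the deposited entry names 1 of them. Among liver genes that reached at least 20 CPM in some library, 0.763% of those with 2 or more protein-coding transcripts were listed at 0 in another liver library, against 0 of 1297 genes with 1 such transcript. The part of this in the Per1 values was not tested. Fkbp5, another direct GR target, read 61.9 and 355 CPM in the vehicle and CORT libraries of GRf/f gastrocnemius and 30.0 and 20.8 CPM in those of GRmKO gastrocnemius. Of 5 genes listed as classic GR targets, Fkbp5 and Zbtb16 were higher and Sgk1 lower with CORT in GRf/f gastrocnemius, where 7.97% of all genes passed. None passed 2-fold in GRmKO gastrocnemius (6.53% of all genes). Tsc22d3 (276 and 157 CPM) and Klf9 (198 and 154 CPM) were also below their vehicle level in GRf/f gastrocnemius, short of 2-fold. Per1 thus moved there opposite to Fkbp5 and Zbtb16 and in the direction of the other 3 of the 5.

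Per2 in gastrocnemius did not pass 2-fold in either genotype, at 25.0 and 20.8 CPM in GRf/f and 23.6 and 19.9 CPM in GRmKO. In liver its levels were 15.2 and 26.5 CPM in GRf/f and 27.4 and 20.01 CPM in GRmKO, log2 changes of 0.79 (0.60 to 1.01) and -0.44 (-0.64 to -0.27). The lowest of the 4 liver libraries was thus GRf/f vehicle. In gonadal WAT Per2 fell only in GRmKO by the 2-fold rule, from 71.0 to 17.5 CPM, -1.99 (-2.19 to -1.85), against 45.3 and 34.2 CPM in GRf/f, -0.40 (-0.55 to -0.26), and the GRmKO change minus the GRf/f change was -1.59 (-1.84 to -1.40).

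Per3 had the lower level in the CORT library in all 6 comparisons. In liver it fell from 14.5 to 3.46 CPM in GRf/f, -1.92 (-2.45 to -1.68), and from 14.2 to 5.81 CPM in GRmKO, -1.22 (-1.60 to -0.98). In gonadal WAT Per3 fell from 76.0 to 17.9 CPM, -2.05 (-2.25 to -1.92), and from 85.0 to 14.4 CPM, -2.52 (-2.75 to -2.38). In each tissue both vehicle libraries lay above both CORT libraries. In gastrocnemius the levels were 21.8 and 11.3 CPM in GRf/f and 22.0 and 12.8 CPM in GRmKO, log2 changes of -0.92 and -0.76 that did not reach 2-fold.

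Ciart had after Dbp the largest median change over the 6 CORT comparisons, -2.92 on the log2 scale against -4.59 for Dbp. In liver it fell from 19.9 to 1.29 CPM in GRf/f, -3.51 (-4.61 to -3.40), and from 24.2 to 4.06 CPM in GRmKO, -2.44 (-2.93 to -2.24). In gonadal WAT Ciart fell from 14.4 to 0.904 CPM in GRf/f, -3.40 (-4.77 to -3.31), and from 10.2 to 0.302 CPM in GRmKO, -3.73 (-6.56 to -3.95). The lowest of these values rests on about 6.10 expected counts. In gastrocnemius, 9.72 and 5.11 CPM in GRf/f and 6.73 and 3.14 CPM in GRmKO gave -0.87 (-1.30 to -0.57) and -0.99 (-1.55 to -0.66), short of 2-fold.

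Bhlhe41 in gastrocnemius measured 56.4 and 59.7 CPM in GRf/f and 67.1 and 47.9 CPM in GRmKO. In liver its levels were low, 6.68 and 3.80 CPM in GRf/f, -0.74 (-1.23 to -0.40), and 7.59 and 2.22 CPM in GRmKO, where it fell by the 2-fold rule, -1.57 (-2.28 to -1.29). The CORT level of this repressor was lower in GRmKO than in GRf/f in all 3 tissues, below 2-fold in each. In gonadal WAT Bhlhe41 fell from 50.8 to 18.6 CPM in GRf/f, -1.43 (-1.63 to -1.28), and from 26.6 to 11.7 CPM in GRmKO, -1.15 (-1.41 to -0.96).

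Counted together, 3 of 10 members were lower with CORT in GRf/f gastrocnemius (Dbp, Nr1d1 and Per1), where 4.72% of all genes tested were lower and 7.97% passed the rule in either direction. In GRmKO gastrocnemius, Dbp alone was lower, against a background of 5.02% lower and 6.53% in either direction, and it was short of 2-fold when libraries were scaled by trimmed means (-0.91) or by medians of ratios (-0.92). The median change of the members was -0.82 in GRf/f and -0.48 in GRmKO, beside -0.08 and -0.10 over all genes tested. In liver 9 members could be tested. Dbp, Per3 and Ciart were lower in GRf/f (background 5.72% lower, 11.6% in either direction), and these 3 and Bhlhe41 in GRmKO (2.82% and 5.61%), with member medians of -0.84 and -0.44 beside 0.00 and 0.05 over all genes.

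Gonadal WAT held the most calls. In GRf/f, 8 of 10 members were lower, all but Hlf and Per2, where 8.07% of all genes were lower and 13.6% passed in either direction. In GRmKO, 9 of 10 were lower, all but Nr1d1, against 5.63% and 9.10%. The member medians were -1.79 and -1.96 beside -0.07 and -0.12 over all genes. No tested member was higher past 2-fold with CORT in any of the 6 comparisons, of which the 2 in liver left out Per1. In these bulk libraries fewer cells of a type and less RNA per cell cannot be told apart. In gonadal WAT the summed level of 5 macrophage markers was 638 and 849 CPM in the vehicle libraries and 1601 and 1581 CPM in the CORT libraries of GRf/f and GRmKO, with 5 of 5 and 4 of 5 markers higher under CORT, while 7 of 7 B and T cell markers were lower in both genotypes (summed level 28.7 and 43.7 against 1.66 and 22.6 CPM). In liver the same macrophage markers summed to 98.6 and 72.1 CPM under vehicle and to 25.6 and 40.9 CPM under CORT in GRf/f and GRmKO, and in gastrocnemius to 93.2 and 357 against 99.6 and 135 CPM. In liver, too, 7 of 7 B and T cell markers were lower in both genotypes. The sum of 5 red cell markers fell with CORT in GRf/f and rose in GRmKO. It went from 1020 to 446 and from 663 to 1120 CPM in liver, and from 4375 to 2155 and from 4441 to 5674 CPM in gonadal WAT. The hepatocyte markers in gonadal WAT summed to 8679 and 8485 CPM under vehicle and to 5616 and 5836 CPM under CORT in GRf/f and GRmKO, which is 8.58% and 6.85% and then 4.30% and 3.58% of their sums in liver. These sums fell through Trf and Cyp2e1, while 6 of 10 markers were higher under CORT in GRf/f and 8 of 10 in GRmKO. The part of these cells and markers in the members' changes was not tested.

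**Figure D2:**
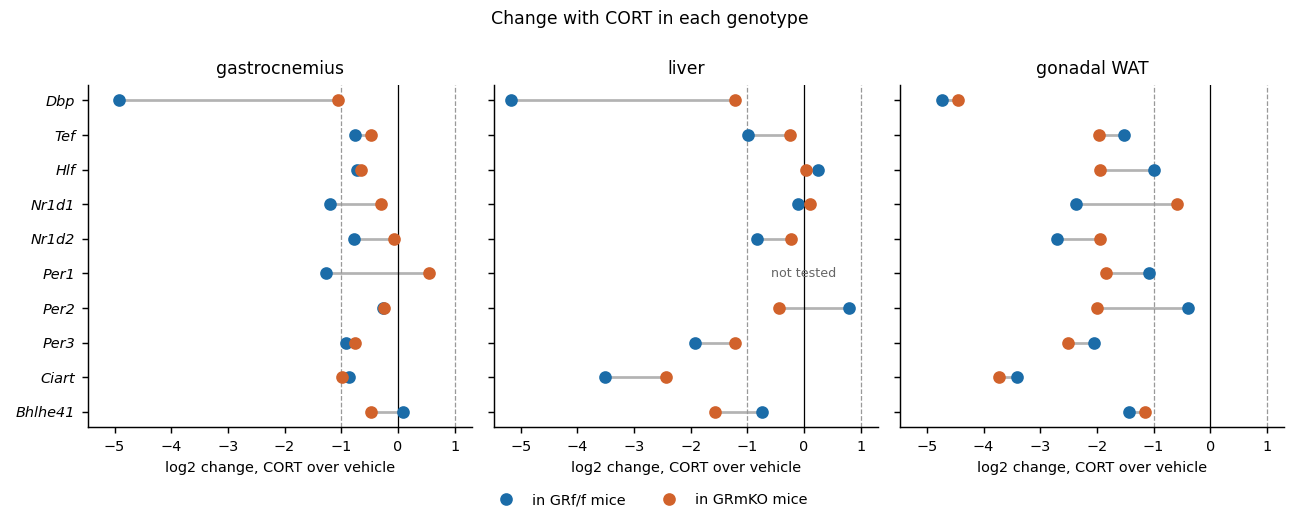
Log2 change with CORT over vehicle for each member in GRf/f (blue) and GRmKO (orange) mice, 1 panel per tissue, joined by a grey line, with dashed lines at 2-fold. Dbp is separated by 3.85 and 3.95 log2 units between genotypes in gastrocnemius and liver and by 0.28 in gonadal WAT, and Per1 was not tested in liver.

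**Figure D3:**
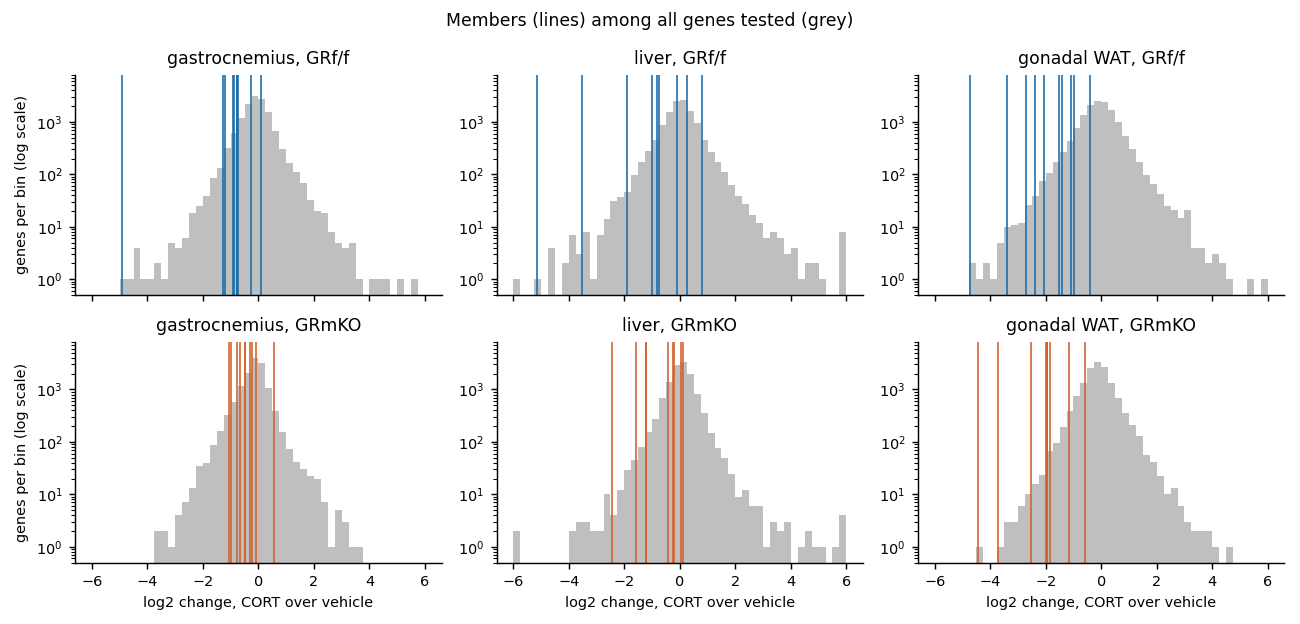
Log2 change with CORT over vehicle of all genes tested (grey histogram, genes per bin on a log scale, changes beyond 6 drawn in the end bins) with the members as coloured lines, by tissue (columns) and genotype (rows). In GRf/f the Dbp line stands at or near the left end of each histogram, at -4.92, -5.16 and -4.73, while in gonadal WAT all 10 lines lie left of 0 in both genotypes.

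The genotypes were next compared within each treatment. Under vehicle, Per1 in gastrocnemius was the only tested member past 2-fold in the 3 tissues, with a log2 difference of -2.01 (-2.20 to -1.87) for GRmKO over GRf/f, where 7.77% of all genes passed. None of 9 members tested passed in liver (background 2.30%), where Per1 read 26.3 CPM in GRf/f and was listed at 0 in GRmKO, or in gonadal WAT (2.22%), although Bhlhe41 in gonadal WAT, at -0.92 (-1.09 to -0.78), and Per2 in liver, at 0.83 (0.66 to 1.06), came near. For Dbp the genotypes differed under vehicle by 0.36 in gastrocnemius, by -0.74 in liver and, in gonadal WAT, by -0.34.

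Under CORT, Dbp was higher in GRmKO by 4.21 (4.05 to 4.79) in gastrocnemius and by 3.21 (3.03 to 3.81) in liver, and differed by -0.05 (-0.37 to 0.26) in gonadal WAT. It was the single member past 2-fold in gastrocnemius, where 9.71% of all genes passed, and was joined in liver by Ciart, higher by 1.35 (1.02 to 2.37), where 4.72% passed. In gonadal WAT Nr1d1 alone passed, higher by 1.04 (0.95 to 1.13), against a background of 2.62%. These differences use the same CORT libraries as the changes with CORT. In gastrocnemius, where Dbp differed most, the summed hepatocyte markers were at most 0.284% of their level in liver, in the GRmKO CORT library, and the adipocyte markers at most 3.70% of their level in gonadal WAT, in the GRf/f CORT library.

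**Figure D4:**
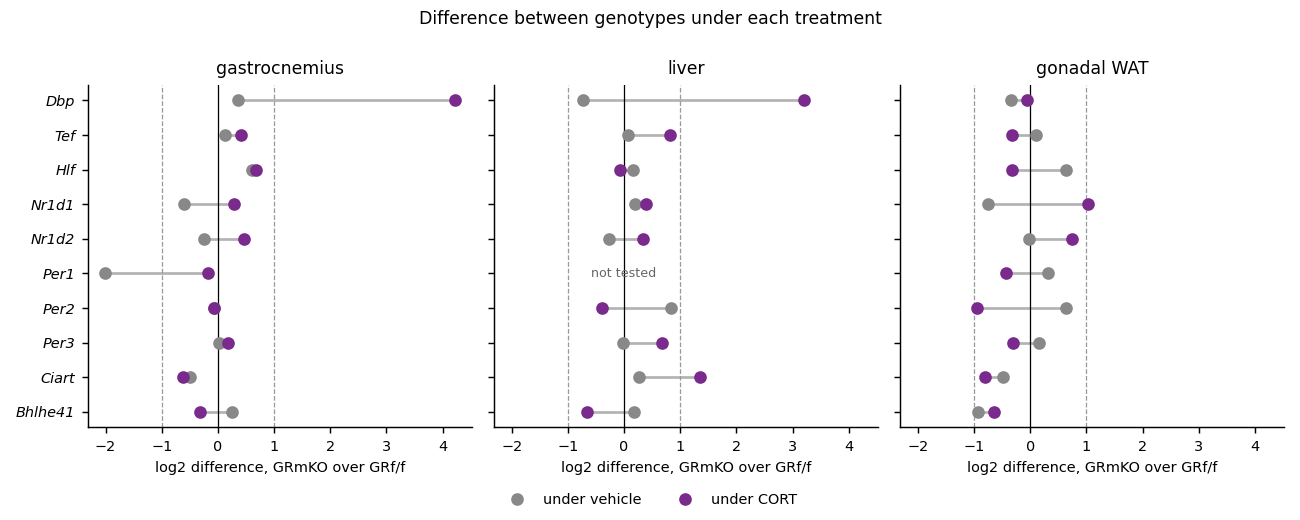
Log2 difference of GRmKO over GRf/f for each member under vehicle (grey) and under CORT (purple), 1 panel per tissue, with dashed lines at 2-fold. Under CORT Dbp lies at 4.21 in gastrocnemius and 3.21 in liver and at -0.05 in gonadal WAT, and under vehicle Per1 in gastrocnemius lies at -2.01.

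The GRmKO change minus the GRf/f change had a counting interval above 0 for 5 of 10 members in gastrocnemius (Dbp, Tef, Nr1d1, Nr1d2 and Per1) and below 0 for Bhlhe41, where 20.5% of all genes lay above and 24.5% below. In liver it was above 0 for 6 of 9 (Dbp, Tef, Nr1d1, Nr1d2, Per3 and Ciart) and below 0 for 3, beside 23.7% and 19.3% of all genes. In gonadal WAT it was above 0 for Nr1d1 and Nr1d2 and below 0 for 5 (Tef, Hlf, Per1, Per2 and Per3), beside 18.4% and 27.9%, and 4 members were above 0 when libraries were scaled by trimmed means or by medians of ratios. Tef, Per1 and Per3 thus had opposite signs between gonadal WAT and the other tissues in which their interval excluded 0.

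The sources used here do not settle whether an entry holds the counts of the transcript it names or the sum over its gene, so levels per kilobase of that transcript are approximate. On this scale, Nr1d1 was the highest member in vehicle-treated GRf/f gastrocnemius, at 106 CPM per kilobase, followed by Dbp at 63.3 and Tef at 31.9, and Per3 was lowest at 3.63. With CORT, Dbp stood at 1.83 CPM per kilobase there, beside 1.88 for Per3. In liver the highest member was Dbp at 67.5 CPM per kilobase, ahead of Nr1d1 at 24.5, and in gonadal WAT Nr1d1 and Dbp stood at 146 and 134.

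The list of 16 further clock genes held activators such as Arntl, Clock and Npas2 and repressors such as Cry1 and Nfil3. With CORT in GRf/f, Arntl, Nfil3, Cry1 and Timeless were higher in gastrocnemius (4 of 14 tested, where 7.97% of all genes passed in either direction). Clock, Npas2, Nfil3 and Cry1 were higher in liver (4 of 12, beside 11.6%), and Arntl, Npas2, Nfil3 and Cry1 in gonadal WAT, with Bhlhe40 lower (5 of 15, beside 13.6%). In GRmKO none passed 2-fold in gastrocnemius or liver (6.53% and 5.61% of all genes), and in gonadal WAT Arntl and Npas2 were higher. Nfil3, the repressor at D-boxes, rose with CORT from 42.1 to 131 CPM in GRf/f gastrocnemius, from 10.5 to 29.5 CPM in GRf/f liver and from 4.41 to 30.1 CPM in GRf/f gonadal WAT. In GRmKO it read 20.7 and 33.4, 16.7 and 20.98, and 12.5 and 15.5 CPM in the same tissues, below 2-fold in each.

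Arntl, which NR1D1 and NR1D2 repress, rose from 10.4 to 34.0 CPM in GRf/f gastrocnemius and read 6.21 and 12.2 CPM in GRmKO. In gonadal WAT it rose from 2.25 to 22.5 CPM in GRf/f and from 0.939 to 9.11 CPM in GRmKO. In liver it read 0.573 and 13.9 CPM in GRf/f and was listed at 0 in the GRmKO vehicle library and at 3.28 CPM under CORT, and it was not tested. The Dbp level per Arntl level fell from 11.1 to 0.0991 in GRf/f gastrocnemius and stood at 24.1 and 5.85 in GRmKO gastrocnemius. In liver under CORT it was 0.214 in GRf/f and 9.62 in GRmKO, and in gonadal WAT it was 109 and 0.389 in GRf/f and 207 and 0.923 in GRmKO.

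**Figure D5:**
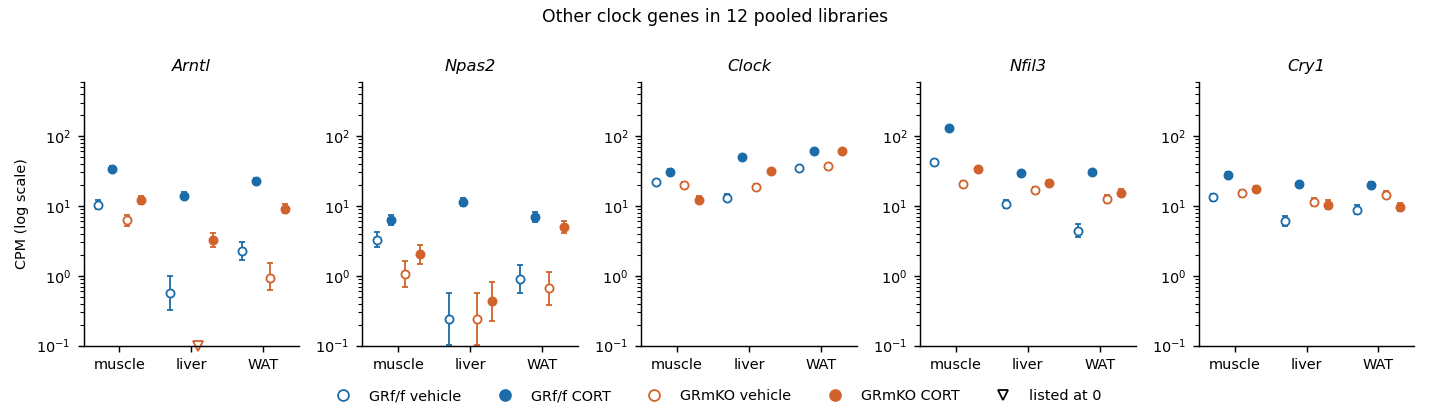
Levels in CPM on a log scale of Arntl, Npas2, Clock, Nfil3 and Cry1, drawn as for the members, with 95% Wilson intervals. In GRf/f the filled CORT points lie above the open vehicle points for each gene in each tissue. The Nfil3 CORT points of GRf/f are at 131, 29.5 and 30.1 CPM, those of GRmKO at 33.4, 20.98 and 15.5 CPM.

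Likeness to Dbp was described by Pearson's r of log2 levels over the 12 libraries, after the mean of each tissue was removed, among 6730 genes with a mean of at least 5 CPM in every tissue. The points share libraries, scaling and the CORT difference, so r is a description. Outside the members the most similar genes were Cdkn1b (r = 0.989), Phka2 (0.981), Rcl1 (0.961), Abtb1 (0.956) and Abhd16a (0.949). Cdkn1b, which encodes a cyclin-dependent kinase inhibitor, moved over a narrower range than Dbp, from 48.7 to 34.3 CPM in GRf/f gastrocnemius and from 48.7 to 46.9 CPM in GRmKO gastrocnemius. Among the members r was 0.913 for Tef, 0.893 for Per3, 0.814 for Nr1d2 and 0.81 for Ciart, and it was lowest for Per2 at 0.379.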

How the data were processed

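The authors sequenced 100-base paired reads of pooled RNA, estimated transcript abundance with Salmon 1.2.1 on GENCODE M20 protein-coding transcripts (mm10) and imported it with tximport in R 3.5.0. Where a symbol occurred more than once they kept the entry with the largest total. For the import the paper names a gene-level step, summarizeToGene, with counts derived from abundance (lengthScaledTPM). The values the authors deposited are expected counts, 1 entry per symbol, each named by 1 transcript, and whether they were summed over the gene first is not settled. If they follow that setting they are length-scaled abundances and not read counts, so the counting intervals are approximate. The same transcript was retained for each member in all tissues. Members and gene lists were chosen with earlier results of these data known. Named genes are the members, the listed clock genes, the genes of the other lists and the 5 genes most like Dbp. The values of 1 listed clock gene are not reported here.

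Each library was divided by its total to give CPM (Python 3.11.15, numpy 2.4.6, pandas 2.3.3, scipy 1.17.1). A gene was tested in a tissue if its 4 libraries were all above 0. The authors' NOISeq was not run. Scripts were tested on simulated data. Alternatives used scaling factors from edgeR 4.0.16 and DESeq2 1.42.0, other pseudocounts and other filters. Promoters came from RefSeq (GRCm38.p6), transcript numbers from GENCODE M21. Intervals cover counting error only, not mice or pools.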

Additional observations from a re-analysis of the deposited data

Results flagged for a closer look

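Some members moved in opposite directions in groups under the same contrast, beyond the counting interval of each change. None of these differences could be tested, since each group is 1 library. Per1 in gastrocnemius was lower with CORT in GRf/f and higher in GRmKO, with a GRmKO minus GRf/f difference of 1.82 on the log2 scale. In GRmKO mice, Per1 was lower with CORT in gonadal WAT and higher in gastrocnemius, a difference of -2.39. Per2 in liver was higher with CORT in GRf/f and lower in GRmKO, a difference of -1.23. Per2 in GRf/f was higher in liver and lower in the other tissues, with differences of 1.04 for liver minus gastrocnemius and -1.19 for gonadal WAT minus liver. Hlf in GRf/f was likewise higher in liver and lower elsewhere, with differences of 0.98 for liver minus gastrocnemius and -1.24 for gonadal WAT minus liver. The Per1 entry is also the one listed at 0 in 2 liver libraries.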

How the results depend on the processing

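Dbp and the counts of members past 2-fold were recomputed with pseudocounts of 0.1 and 1 CPM, trimmed-mean and median-of-ratios scaling, and a counting interval past 2-fold. No Dbp change reversed. Dbp in GRmKO gastrocnemius under CORT was -0.91 with trimmed-mean and -0.92 with median-of-ratios scaling, so the count of members there was 0 with each, 0 when the interval had to pass 2-fold, and 2 with a pseudocount of 0.1. These scalings moved the median of all genes in that comparison by 0.146 and 0.136. In gonadal WAT under CORT the count of members differing between genotypes was 2 with a pseudocount of 0.1 and 0 by the interval. Without Per1, an alternative chosen after seeing the data, no member differed between genotypes in vehicle gastrocnemius (0), and 2, 7 and 8 members were lower with CORT in GRf/f gastrocnemius and in gonadal WAT of GRf/f and GRmKO. A mean of at least 1 CPM raised the share of all genes past 2-fold between genotypes to 4.21% in vehicle liver and to 3.495% and 4.12% in vehicle and CORT gonadal WAT. Of the rest, 46 Dbp values stayed within their counting error, and 61 counts and 21 shares within 1.5 times. Among these counts, Tef was gained in GRf/f liver by trimmed-mean scaling (4) and Hlf in GRf/f gonadal WAT by a pseudocount of 0.1 (9). With the interval past 2-fold, Per3 was lost in GRmKO liver (3), Per1 in GRf/f gonadal WAT (7) and Bhlhe41 in GRmKO gonadal WAT (8). No paired analysis was possible because each group has 1 library, and for the same reason no replicate could be left out.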

Other observations

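Genes known to act downstream of the E-box and D-box were read from lists of 8 and 9 genes. In liver with CORT, Wee1, Usp2 and Pfkfb3 of 8 E-box output genes were lower past 2-fold and Tars higher in GRf/f, and Usp2, Pfkfb3 and Elovl3 were lower in GRmKO. Usp2, a clock-controlled ubiquitin peptidase, read 48.2 and 6.09 CPM in the vehicle and CORT libraries of GRf/f liver and 56.1 and 25.8 CPM in those of GRmKO liver. Of 9 D-box output genes in liver, Alas1 and Ppara were lower and Cyp2b10 higher in GRf/f, and Cyp7a1 lower and Cyp2b10 higher in GRmKO. Alas1, the rate-limiting enzyme of heme synthesis in liver, read 485 and 50.1 CPM in GRf/f liver and 519.4 and 275 CPM in GRmKO liver. With CORT, 11.6% of all genes passed 2-fold in GRf/f liver and 5.61% in GRmKO liver. In GRf/f gastrocnemius none of 7 tested E-box genes and none of 6 tested D-box genes passed 2-fold with CORT (7.97% of all genes). In GRmKO gastrocnemius Tspan4 was lower and Gys2 higher of the E-box genes and no D-box gene passed (6.53%). The Gys2 call rests on 2.01 and 22.0 expected counts in the vehicle and CORT libraries. All 10 hepatocyte markers were also higher with CORT in GRmKO gastrocnemius, and their part in the Gys2 value was not tested. In GRf/f gonadal WAT 1 of 7 E-box genes, Tspan4, was lower and none of 5 D-box genes passed (13.6%). In GRmKO gonadal WAT Wee1 and Tspan4 were lower, Por lower and Cyp2a5 higher (9.10%), with Cyp2a5 at only 6.00 and 31.0 expected counts.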
